A study of Mus musculus with 2 samples.

Results

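Genes that take up vitamin A, bind its derivatives and turn them over, with *Tgm2* as a gene induced by retinoic acid, were examined in 4T1 cells, a mouse mammary carcinoma line, sorted by aldehyde dehydrogenase (ALDH) activity. The genes were *Stra6*, *Rbp4*, *Rdh10*, *Dhrs3*, *Crabp1*, *Crabp2*, *Cyp26a1*, *Cyp26b1* and *Tgm2*. All 9 were found by their gene name on the array, with 10 of its 55681 probes and out of 34797 gene names. Every probe of a gene was kept, and the rule used gene names and no measured value. The 9 genes themselves were chosen with earlier results of these data known. The study compared ALDH-positive with ALDH-negative 4T1 cells from culture without treatment, which were separated with ALDEFLUOR, a fluorescent substrate assay of ALDH activity. The labels give both populations as strain BALB/C and call them cancer stem cell and anti cancer stem cell; the link of these names to high and low ALDH activity was taken from the series design and from the study's naming. Each population was measured on 1 single-colour Agilent array, and both arrays lay on 1 slide. There is therefore no replicate, no test and no p-value, and the population and its array cannot be told apart.

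Retinol circulates bound to RBP4 and enters cells through STRA6. Inside the cell RDH10 oxidises retinol to retinaldehyde and DHRS3 reduces retinaldehyde back to retinol. The ALDH1A enzymes, which belong to the family whose activity ALDEFLUOR reads, oxidise retinaldehyde to retinoic acid. The binding proteins CRABP1 and CRABP2 carry retinoic acid in the cytoplasm, CRABP2 to the nuclear receptors, and the cytochrome P450 enzymes CYP26A1 and CYP26B1 degrade it. *Cyp26a1*, *Dhrs3* and *Tgm2*, which encodes tissue transglutaminase, are known as genes that retinoic acid induces in many cells.

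Each value of these genes rests on the spot of a probe of 60 bases, printed once on each array. The probes of the genes with a ratio are shown by their first 30 bases, 5′ to 3′, because the labelled RNA of each population was read through them, and *Cyp26a1* is added whole for its place in retinoic acid clearance. Positions are those of the scanner files on build NCBI37.
*Dhrs3*, chr4:144517485-144517544, plus strand: ctcccagctcgtgcaaactggttacacagc
*Cyp26b1*, chr6:84521952-84522011, minus strand: gttcgtgtgtctcgttgtggtagcattaat
*Rdh10*, chr1:16122062-16122121, plus strand: attaaatgtttagagacctggttaatccac
*Crabp2*, chr3:87757207-87757266, plus strand: ctgtctctctggcctctactccttatcctt
*Tgm2*, first probe, chr2:157942275-157942334, minus strand: ctgggaagaatcaaactgatgcatttaacg
*Tgm2*, second probe, chr2:157942431-157942490, minus strand: aaagcgtggaagcctgtgtgggggtcatca
*Cyp26a1*, chr19:37775566-37775625, plus strand: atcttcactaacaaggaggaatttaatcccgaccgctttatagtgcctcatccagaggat
The share of G and C over the 60 bases was 50% for *Dhrs3*, 41.7% for *Cyp26b1*, 35% for *Rdh10*, 40% for *Crabp2*, 45% and 55% for the *Tgm2* probes and 43.3% for *Cyp26a1*. The *Cyp26b1* probe had a stop codon in every forward reading frame. The exon or untranslated region that each probe covers was not analysed here, since no annotation of this build was used.

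Of the 9 genes, 5 were measured, that is, well above background by the scanner software on at least 1 array, and all 5 were so on both arrays. *Dhrs3* and *Cyp26b1* had higher signals in ALDH-positive cells, with ratios of 1.82 and 1.91. *Rdh10*, *Crabp2* and *Tgm2* had ratios between 1.03 and 1.15, differences smaller than the error that the scanner software gives for their spots. That error was almost the same for these spots, 0.204 or 0.205 on the log2 scale, and is not a measured scatter. Probes printed repeatedly had smaller median SDs within an array, 0.0584 (ALDH-negative) and 0.0489 (ALDH-positive). *Stra6*, *Rbp4*, *Crabp1* and *Cyp26a1* were not well above background on either array, and no ratio is given for them. In these sorted populations, fewer cells with an mRNA and less of that mRNA in each cell cannot be told apart.

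**Figure D1:**
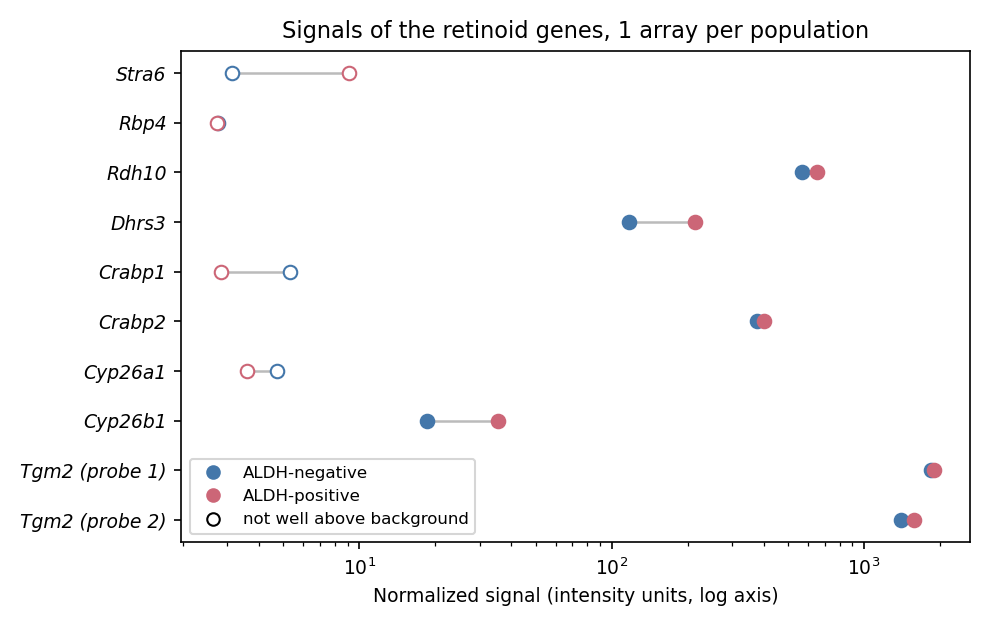
Normalized signal (intensity units, log axis) of each of the 10 probes in ALDH-negative and ALDH-positive 4T1 cells, with open circles for spots not well above background. Each point is 1 array, so there is no error bar. The 4 genes with open circles lie between 2.74 and 9.13, and the widest gaps among filled circles are those of *Dhrs3* and *Cyp26b1*. Signals of different probes are not comparable as amounts of RNA.

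In the uptake step, the *Stra6* probe, at chr9:58001701-58001760, gave a normalized signal of 3.13 in ALDH-negative cells against 9.13 in ALDH-positive cells. Before normalization these were 3.06 with an error of 3.07 and 9.53 with an error of 3.38. The ALDH-positive spot was the brighter, with a mean pixel value of 74.6 against a subtracted background of 65.5, but neither spot met the software's criterion. The *Rbp4* probe, at chr19:38191120-38191179, gave 2.76 and 2.74, and its mean pixel values of 67.0 and 64.4 lay at the subtracted backgrounds of 66.5 and 65.8. The lowest normalized signals of any probe well above background were 13.1 for the ALDH-negative array and 12.7 for the ALDH-positive one, so signals under these were not told from background here.

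**Figure D2:**
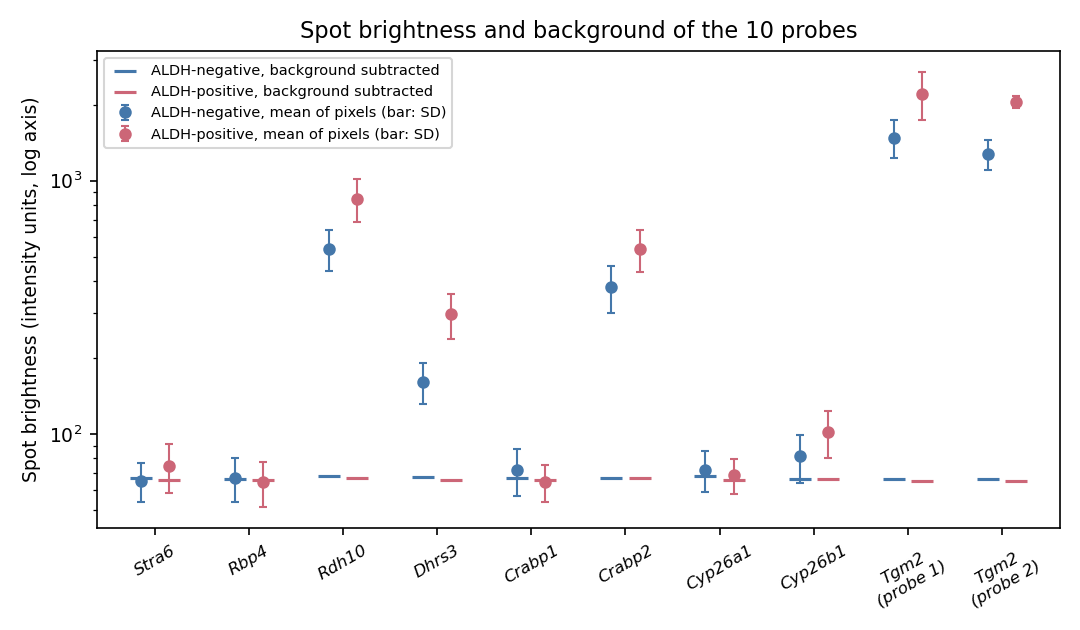
Mean pixel brightness of each of the 10 spots on both arrays (intensity units, log axis; bars are the SD over the pixels of the spot) with the background that the scanner software subtracted drawn as a dash. The spots of *Stra6*, *Rbp4*, *Crabp1* and *Cyp26a1* lie at their background within the SD of their pixels, *Cyp26b1* lies above it by less than 1 SD in ALDH-negative and by more than 1 SD in ALDH-positive cells, and the other probes lie clear of it on both arrays.

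In the interconversion of retinol and retinaldehyde, *Dhrs3* was higher in ALDH-positive cells. Its spot gave a normalized signal of 117 in the ALDH-negative population against 213 in the ALDH-positive one, and the log2 ratio was 0.87. The error, carried from the software's errors of both signals, was 0.21 on the log2 scale; it covers the reading of the spots and not the spread between cultures. The mean pixel values were 161 and 297, over local backgrounds of 58.0 and 55.0, so the ALDH-positive spot was the brighter before any correction. The measured probes of that array were brighter by a median of 0.49 on the log2 scale before normalization, and *Dhrs3* by 1.29.

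The methods of the study selected a gene as higher where its ratio was at least 1.5 and its Z-score at least 2.0. With the Z-score taken against the 250 probes next above and the 250 next below in mean log2 signal, *Dhrs3* had a Z-score of 2.46 and was selected. It was also selected under 10 of 11 other processing settings, with log2 ratios from 0.60 to 1.29. The exception was a Z-score over all probes, which is 1.39. In comparison, *Rdh10*, whose enzyme works in the opposite direction, gave 566 and 651, a log2 ratio of 0.20 (error 0.204). It passed the ratio without normalization between arrays alone, with 0.71, a setting in which the median of all measured genes was 0.51.

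The *Dhrs3* spot lay in column 154 of 164, in the area from row 337 or column 144 on, where 3.76% of 6977 measured probes were selected as higher against 0.708% of 21608 elsewhere. It lay there by its column and not by its row, 270. By columns alone, 3.15% of 3709 measured probes from column 144 on were selected as higher against 1.2% of 24876 before it. Among the 200 measured spots nearest to the *Dhrs3* spot, 7 were past the ratio and 1 was selected, and their median log2 ratio was 0.0043. Less that median, the log2 ratio of *Dhrs3* was 0.86. The *Rdh10* spot lay in the area of last rows or columns by its row, 347, with 17 of its 200 nearest spots past the ratio and 3 selected. The part of the position in these ratios beyond the local median was not tested.

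In the binding of retinoic acid, *Crabp2* gave 377 in the ALDH-negative population against 401 in the ALDH-positive one. The log2 ratio was 0.09 (error 0.205, Z-score 0.348), a difference smaller than the error. *Crabp1*, at chr9:54616192-54616251, gave 5.33 and 2.82 and was not well above background on either array. Its mean pixel values were 72.3 and 64.6 against subtracted backgrounds of 66.7 and 65.5.

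In the clearance of retinoic acid, *Cyp26b1* gave a normalized signal of 18.5 in the ALDH-negative population against 35.3 in the ALDH-positive one, and the log2 ratio was 0.93 (error 0.363). Both spots were well above background but close to it. The mean pixel values were 81.5 and 102 against subtracted backgrounds of 66.3 and 66.1. The ratio passed 1.5 but the Z-score, 1.25, did not pass 2.0, so that *Cyp26b1* was not selected, nor was it under any of the 11 other settings. With normexp, another background correction, its log2 ratio was 0.24, and with no background correction 0.26, both short of the ratio limit of 0.585 on this scale. Of the 200 measured spots nearest to it, 7 were past the ratio and none was selected. *Cyp26a1* gave 4.71 and 3.58, with mean pixel values of 72.3 and 68.8 against subtracted backgrounds of 68.3 and 65.7, and was not well above background on either array.

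**Figure D3:**
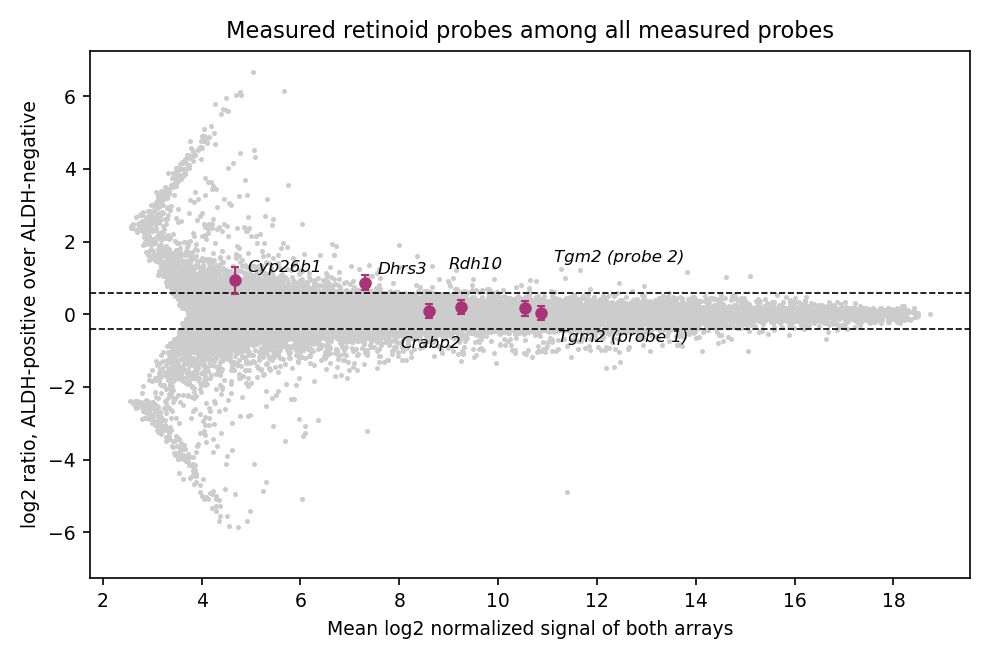
log2 ratio of ALDH-positive over ALDH-negative cells against the mean log2 normalized signal of both arrays for every measured probe (grey) and the 6 measured probes of the retinoid genes (purple, with the error of the spots); dashed lines mark ratios of 0.75 and 1.5. The ratios of all probes spread more widely at low signal, where *Cyp26b1* lies (0.93), than at the signal of *Dhrs3* (0.87). The other 4 probes lie between the dashed lines.

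*Tgm2*, the target gene of the list, was the 1 gene with more than 1 probe. The first probe gave 1844 and 1893, a log2 ratio of 0.04, and the second gave 1408 and 1579, a log2 ratio of 0.17, each with an error of 0.204. The probes start 156 bases apart in the genome and their spots lay 105 columns apart on the arrays. Their ratios differed by 0.13, which is less than the error of either. The median log2 ratio of the 200 spots nearest to the second probe was 0.11, and less that median its log2 ratio was 0.06. The first probe, in column 149, lay in the same area as *Dhrs3*, and less its own local median its log2 ratio was 0.04.

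Retinoic acid receptors bind direct repeats of a short motif, and the promoters of the 9 genes were searched for it in RefSeq sequences of build GRCm38.p6, from 250 bases before to 50 after each transcription start. The table held 12 such windows for 6 of the genes and none for *Crabp2*, *Rdh10* or *Tgm2*. The motif searched was AGGTCA, with AGTTCA counted as a first variant, GGGTCA counted as another and GGTTCA counted as the last, and any 2 of these in the same direction on either strand with 5 or 2 bases between them were counted. The spacing of 5 was found in 0.0975% and the spacing of 2 in 0.268% of all 32817 windows. Among the 12 windows the *Cyp26a1* promoter alone held a match, with the spacing of 5, on the strand opposite to the gene, at chr19:37697776-37697792, which is 32 to 16 bases before the start:
*Cyp26a1* direct repeat, both copies in capitals: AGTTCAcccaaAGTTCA
This is a match of letters, not a measured site. The *Cyp26a1* probe was not well above background in either population, so no ratio stands beside this match.

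Among all 20386 measured genes, 5.72% had a ratio of at least 1.5 and 9.84% a ratio of 0.75 or less. Of the 5 measured retinoid genes, 2 passed the upper ratio, *Dhrs3* and *Cyp26b1*, and 0 the lower. By ratio and Z-score, 1.6% of all measured genes were selected as higher and 3.28% as lower, and of the retinoid genes 1, *Dhrs3*, and 0. With 5 genes measured, these counts describe the genes and say nothing about the list as a whole. The log2 ratio was above 0 for all 5, with a median of 0.20, while 53.9% of all measured genes were above 0, with a median of 0.02. The balance of the ratio calls over all genes depended on the scaling: higher genes were 36.8% of them with quantile normalization, 26.2% with a shift to the 75th percentile, 89.1% with no normalization between arrays, 22.4% with normexp and 21.9% with no background correction. Under all of these settings the 5 genes kept log2 ratios above 0. The settings reprocess the same 2 arrays, so a kept sign is not a repeated measurement. With no normalization the median of all measured genes was itself 0.51.

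**Figure D4:**
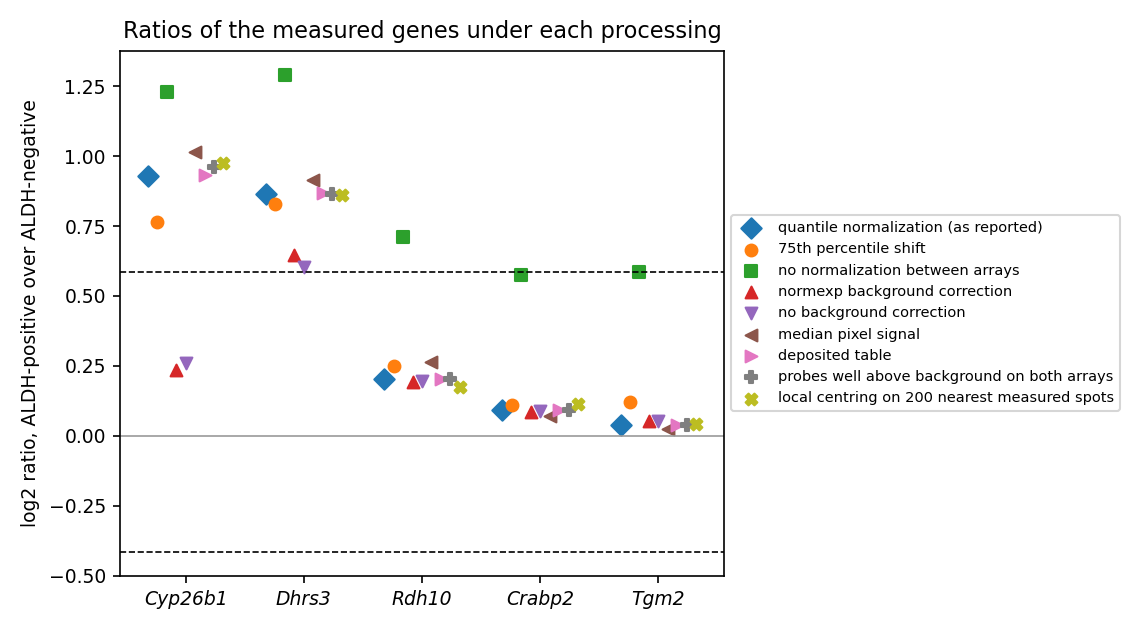
log2 ratio of ALDH-positive over ALDH-negative cells for the 5 measured genes under quantile normalization and 8 other ways of processing the same 2 arrays; dashed lines mark ratios of 0.75 and 1.5. *Dhrs3* stays above the upper line in each (0.60 to 1.29), *Cyp26b1* drops to 0.24 and 0.26 with normexp and with no background correction, and the squares without normalization are raised for every gene.

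The rest of the retinoid pathway was read from 54 further genes in 7 lists, of which 33 were measured. None was selected by ratio and Z-score, beside 1.6% of all measured genes selected as higher and 3.28% as lower. At such shares few or none are to be found in lists of this size, so these counts do not show the lists to be unchanged. *Bco2*, which encodes a carotenoid-cleaving enzyme, was the 1 gene past the upper ratio, with a signal of 31.0 against 48.6 in the ALDH-positive population and a log2 ratio of 0.65 (error 0.277). It did not pass the ratio with the 75th percentile shift, with normexp, with no background correction or from the median of the pixels. The 1 gene counted past the lower ratio was *Rlbp1*, a retinaldehyde carrier of the eye, which was well above background in ALDH-negative cells alone. *Rlbp1* was at least 1.13-fold higher there, the level of 14.3 set against the lowest signal of a probe well above background on the other array. That bound falls short of the ratio limit, so the count rests on an ALDH-positive signal of 2.62, not told from background. The median log2 ratio of the 33 genes was 0.08, with 20 above 0 and 13 below.

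Of the genes of retinaldehyde dehydrogenases, *Aldh1a1* gave 17.8 and 19.6, a log2 ratio of 0.14 (error 0.368). *Aldh1a2*, with 4.62 and 3.15, and *Aldh1a3*, with 2.57 and 2.59, were not well above background on either array. *Aldh8a1* gave 108 and 85.7, a log2 ratio of -0.34 (error 0.215). *Aldh1a1* was thus the 1 ALDH1A gene with a ratio, and its difference was smaller than its error. Neither of the 2 measured dehydrogenase genes, *Aldh1a1* and *Aldh8a1*, passed a ratio limit.

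The other retinol dehydrogenases and retinal reductases are the relatives of *Rdh10* and *Dhrs3*. Of these 17 genes, 12 were measured and none passed a ratio limit (all measured genes: 5.72% the upper, 9.84% the lower). The log2 ratios of the 12 ran from -0.29 to 0.48, with a median of 0.0013. *Dhrs3*, with 0.87, lay above the whole of that range and *Rdh10*, with 0.20, inside it. *Rdh12*, which reduces retinaldehyde in photoreceptors, gave 5835 and 5150, a log2 ratio of -0.18.

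Of the retinyl ester storage and carotenoid cleavage genes, 3 of 6 were measured, with a median log2 ratio of 0.26. *Dgat1*, which can esterify retinol, gave 331 and 397, a log2 ratio of 0.26 (error 0.205). Of the other carriers 5 of 8 were measured, and *Fabp5*, which can carry retinoic acid, gave 64787 and 68256, a log2 ratio of 0.08. Of the other P450 genes *Cyp1b1* was measured, with 459 and 555 and a log2 ratio of 0.27.

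The nuclear receptors for retinoic acid were measured in 6 of 7 cases, with a median log2 ratio of 0.09. None passed a ratio limit (all measured genes: 5.72% the upper, 9.84% the lower). *Rarg* gave 3692 and 4968, a log2 ratio of 0.43 (error 0.204, Z-score 2.14), but its ratio was 1.35. *Rara* gave 5256 and 5860, a log2 ratio of 0.16, and its second probe 0.36. *Rxra* gave 47.4 and 54.5, a log2 ratio of 0.20, and its second probe 0.18. *Rxrb* gave 8361 and 7855, a log2 ratio of -0.09, and *Rxrg* 2518 and 2194, a log2 ratio of -0.20. The values of *Rxrg* rest on 1 of its 2 probes, and the other was not well above background on either array. *Ppard*, a receptor of fatty acids that can also respond to retinoic acid, gave 2950 and 2980, a log2 ratio of 0.01. *Rarb*, itself a gene induced by retinoic acid, gave 5.74 and 10.5 and was not well above background on either array. The 6 measured receptors thus had log2 ratios from -0.20 to 0.43, 4 above 0 and 2 below.

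Of 10 other genes induced by retinoic acid, 4 were measured, with log2 ratios from -0.22 to 0.09 and a median of -0.0086. None of the 4 passed a ratio limit (all measured genes: 5.72% the upper, 9.84% the lower). Of the genes introduced above as induced by retinoic acid, *Dhrs3* had a log2 ratio of 0.87, *Tgm2* had 0.04 and *Cyp26a1* was not measured.

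**Figure D5:**
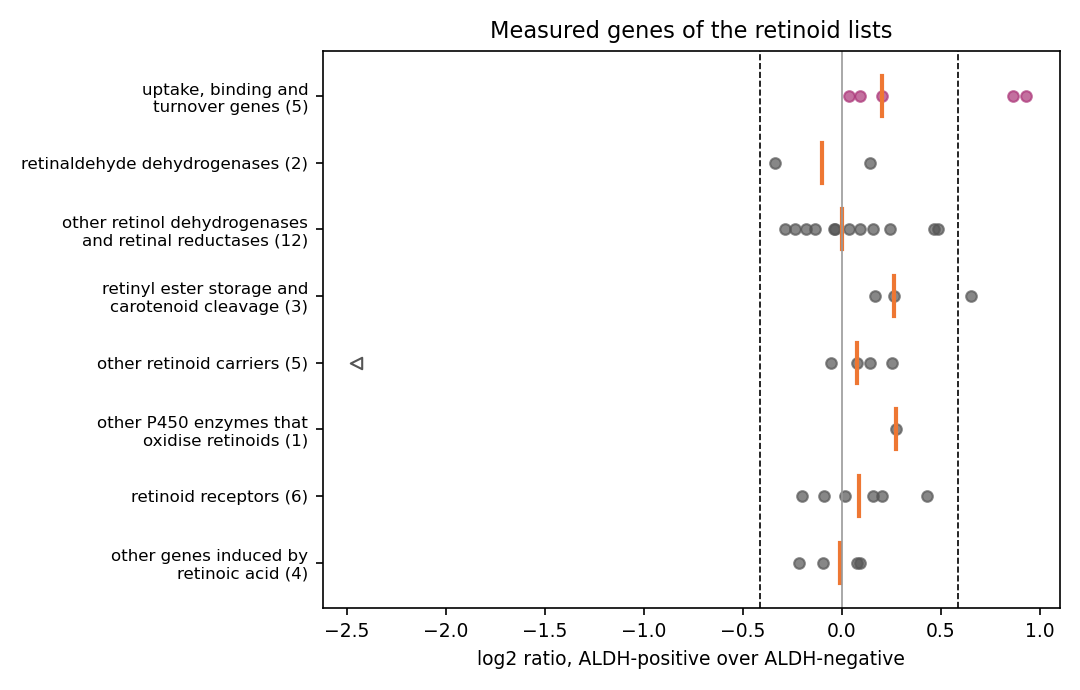
log2 ratio of ALDH-positive over ALDH-negative cells for each measured gene of the 9 retinoid uptake, binding and turnover genes (purple) and of 7 other retinoid lists (grey), with the number measured in brackets and the median as an orange bar; dashed lines mark ratios of 0.75 and 1.5. *Dhrs3* and *Cyp26b1* lie to the right at 0.87 and 0.93, *Bco2* at 0.65, and the open triangle is *Rlbp1*, not well above background in ALDH-positive cells, whose plotted ratio is not a measured fold.

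As to the arrays as a whole, the ALDH-negative array had 26985 probes well above background and the ALDH-positive array 27503, and the 75th percentiles of the processed signal were 234 and 322. The median error of a log2 ratio was 0.206, and probes printed repeatedly had a median SD within an array of 0.0584 and 0.0489 on the log2 scale. All 4 epithelial marker genes were measured, with log2 ratios from 0.16 to 0.40 by the brightest probe of each. A second *Krt8* probe gave 0.04. Of 17 markers of leukocytes, endothelium, fibroblasts, adipocytes and hepatocytes, 13 were not well above background on either array, among them the defining *Ptprc*, *Adipoq* and *Alb*. The other 4 were *Cd3e*, *Pecam1*, *Pdgfra* and *Col1a1*, with log2 ratios from -0.70 to 0.21, and 2 of them passed the lower ratio (all measured genes: 9.84%). *Cd3e*, a T cell gene, gave 917 in ALDH-negative cells against 664 in the ALDH-positive population, a ratio of 0.724, and *Col1a1*, a collagen gene, gave 28.2 against 17.3, a ratio of 0.614. The *Col1a1* signals were dim, with an error of 0.332 on the log2 scale. Neither was selected by ratio and Z-score, and their part in the retinoid values was not tested.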

How the data were processed

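Sorted 4T1 cells, 1 ALDH-negative population and 1 ALDH-positive one, were measured on single-colour Agilent arrays. The authors used 50 ng of RNA for each Cy3 labelling and extracted spot intensities with Agilent Feature Extraction, which is 9.5.1.1 in the submitters' processing notes and 10.7.1.1 in the file header. The labels and the paper name different RNA kits. The deposited scanner files give a background-subtracted processed signal, in intensity units, for 62976 spots on each array, and the authors' table gives quantile-normalized intensity for 55681 probes. The sorted values of that table are within 0.281% of the mean of the sorted processed signals.

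The 3671 control spots and the outlier spots (135 and 116 on the ALDH-negative and ALDH-positive arrays) were left out, repeated spots were averaged, signals under 1 were set to 1, and log2 signals were quantile-normalized over both arrays (Python 3.11.15, numpy 2.4.6, pandas 2.3.3). The probe with the highest mean log2 signal stood for a gene. Selection used a ratio of at least 1.5 with a Z-score of at least 2.0, or at most 0.75 with at most -2.0; the methods do not define the Z-score, so it was taken against the 250 probes next above and the 250 next below in mean log2 signal. A gene was called measured where a probe was well above background on at least 1 array. The number of arrays limits the precision: with 1 per population the spread between cultures is unknown.

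The 9 genes and the other lists were chosen with earlier results of these data known. Named were all probes of the 9 genes, other retinoid genes past the ratio and well above background on both arrays, every ALDH1A gene and receptor, and otherwise the brightest gene of each list. Some genes that this rule covers are not reported here. *Aldh8a1* and *Rlbp1* were named after their values were seen. Alternatives were the 75th percentile shift, no normalization, normexp (limma 3.58.1 in R 4.3.3, offset 50), no background correction, the deposited table, a filter on both arrays, centring on the 200 nearest spots, other Z-score windows and the median over the probes of a gene. The processing was tested on simulated data.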

Additional observations from a re-analysis of the deposited data

How the results depend on the processing

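Under 12 alternatives, 147 values were recomputed. Of these, 122 stayed within a tolerance, which was the error of the spots for a log2 ratio, the median error of 0.206 for a median and a factor of 1.5 for a count, and 25 did not. No log2 ratio of the 9 genes and no median changed sign. All 49 recomputed log2 ratios of the 9 genes' measured probes were above 0, but they come from the same 2 arrays and are not independent. No paired analysis was possible because each population had a single array, and for the same reason no replicate could be left out. Signal over background limits the dim genes: *Cyp26b1*, at 18.5 and 35.3, had an error of 0.363, and *Aldh1a1*, at 17.8 and 19.6, one of 0.368.

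Of the retinoid genes, 2 were past the upper ratio, which became 1 with normexp and 1 with no background correction, in each case *Dhrs3* without *Cyp26b1*, and 3 with no normalization between arrays, with *Rdh10* added. Of all measured genes, 5.72% were past that ratio. This share was 0.961% with normexp, 0.883% with no background correction and 36.5% with no normalization. The 1 gene selected by ratio and Z-score, *Dhrs3*, became 0 with the Z-score over all probes. With no normalization between arrays the median log2 ratio of the measured genes was 0.71 in place of 0.20, and that of the other retinoid genes 0.56 in place of 0.08; the median of all measured genes was then 0.51. Of the other retinoid genes, 12 passed the upper ratio and 1 was selected as higher with no normalization, in place of 1 and 0. In that setting 36.5% of all measured genes passed the upper ratio and 2.53% were selected as higher. The count past the upper ratio was 0 with the 75th percentile shift, with normexp, with no background correction and from the median of the pixels, an alternative chosen after seeing the data. The shares of all measured genes past it were then 4.21%, 0.961%, 0.883% and 6.18%, in that order. Past the lower ratio were 0 in place of 1 with normexp, with no background correction and with the filter on both arrays, and 2 from the median of the pixels. The shares of all measured genes were then 3.33%, 3.15%, 7.13% and 10.3%, in place of 9.84%. With the Z-score over all probes, 1 other retinoid gene was selected as lower. The cause of these changes was not tested.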
